A study of Mus musculus with 6 samples.

Results

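This report describes 10 genes of axon growth, neurite shape and neuronal signalling in nerves that lack 2 histone deacetylases in their Schwann cells. They are Gap43 and Basp1, the 4 stathmin genes Stmn1, Stmn2, Stmn3 and Stmn4, the G protein regulator genes Gprin1 and Gprin3, and the neuronally enriched genes Aplp1 and Bex1. Members were chosen by gene symbol, and each is represented by its probe set with the highest mean over the 6 arrays. All 10 were among the 18194 genes named on the array, with 17 probe sets between them. The set was put together with the difference between the groups already known, so the values of these 10 genes are given as a description and without a test.

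The material was sciatic nerve stripped of its perineurium, taken on postnatal day 2 from mouse pups whose strain is labelled mixed. At this age Schwann cells start to form myelin. The double knockout (dKO) group, labelled DhhCre+ HDAC1-2 dKO and peripheral hypomyelination, had lost Hdac1 and Hdac2 in Schwann cells through a Cre recombinase named for the desert hedgehog gene. Control littermates were DhhCre– with no disease state, and their alleles of the deacetylase genes were not given in the sources used here. Each group had 3 samples, each on 1 Affymetrix Mouse Genome 430 2.0 array, and no label says how many pups or nerves a sample held. Values are log2 expression with mean ± SD over n = 3 arrays, and a change is the dKO mean minus the control mean, given with a standard error (SE). Values under 4 are at the low end of the scale and have little meaning as levels. Precision is limited by the number of arrays; over the 14550 genes tested the median SE was 0.17.

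Gap43, Basp1, the stathmins and the Gprin proteins are known from the growth cone, the motile tip of a growing axon. Gap43 and Basp1 encode fatty-acylated proteins of the inner membrane leaflet that bind phosphoinositides and shape the actin cortex, and Gap43 is a substrate of protein kinase C. Stathmins bind tubulin dimers and promote the shrinkage of microtubules, and Gprin proteins bind activated G protein alpha subunits of the inhibitory and Go class. In peripheral nerve, Gap43 is also known from immature and non-myelinating Schwann cells, and it is low in Schwann cells that myelinate.

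Both deacetylase genes had lower values on every dKO array on their brightest probe sets. Hdac1 was at 34.1% and Hdac2 at 41.8% of the control level in RNA of the whole nerve sample (log2 changes -1.55 and -1.26, adjusted p = 0.000271 and 0.00103). The second brightest for Hdac2 changed by -1.01. The dimmest was at 6.01, 5.96 and 6.32 in control and 6.34, 6.29 and 6.06 in dKO nerves, so its groups overlapped (change 0.13, adjusted p = 0.617). Averaging over these probe sets gave -0.71 for Hdac2. Which probe sets lie in the deleted parts was not checked here. In RNA from a whole nerve, fewer cells of a type and less RNA per cell cannot be told apart. Of 5 Schwann cell markers measured, Erbb3 and S100b fell and 0 rose. Sox10, Cdh19 and Foxd3 did not pass. Sox10 was at 10.68 ± 0.44 in control and 10.32 ± 0.37 in dKO nerves. Cdh19 had a change of -0.55 (adjusted p = 0.0569), and Foxd3 went the other way, with a change of 0.46 (adjusted p = 0.283). The summed linear level of the 5 markers was 7240 to 9400 on control and 3690 to 5140 on dKO arrays. The summed markers of fibroblasts (26100 to 28700 against 31900 to 33300), macrophages (1090 to 1640 against 1880 to 3900) and endothelial cells (805 to 1090 against 1140 to 1640) were higher on every dKO array. Such sums weigh the brightest markers most. Of the single genes, 3 fibroblast, 2 macrophage and 0 endothelial markers rose (Dcn, Lum, Pdgfra, Aif1 and C1qa) and 0 fell, and of 5 skeletal muscle markers tested 0 passed in this limma fit. The calls of Dcn, Lum and Aif1 were each lost with some arrays left out (without dKO 2, adjusted p = 0.0618, 0.0805 and 0.0506). The part of these shifts in the results that follow was not tested.

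Of the 10 genes, 6 were higher in dKO nerves by 4.64-fold or more, and the other 4 had small differences or probe sets that disagreed. The 6 are Gap43, Basp1, Stmn3, Gprin3, Aplp1 and Bex1. All 10 passed the low-value filter, 6 were past the threshold of the gene-wide limma fit as higher and 0 as lower. Over all genes tested, 22.0% were past that threshold, 12.6% as higher and 9.38% as lower. The 6 were also at least 4-fold higher, as were 1.13% of all genes tested. All dKO arrays lay above all control arrays for 7 of the 10 genes and below them for 1, against 22.6% and 18.4% of all genes tested. Since the genes were chosen from this contrast, nothing is read from these counts. The median change over the 10 genes was 2.39, beside 0.01 over all genes tested.

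**Figure D1:**
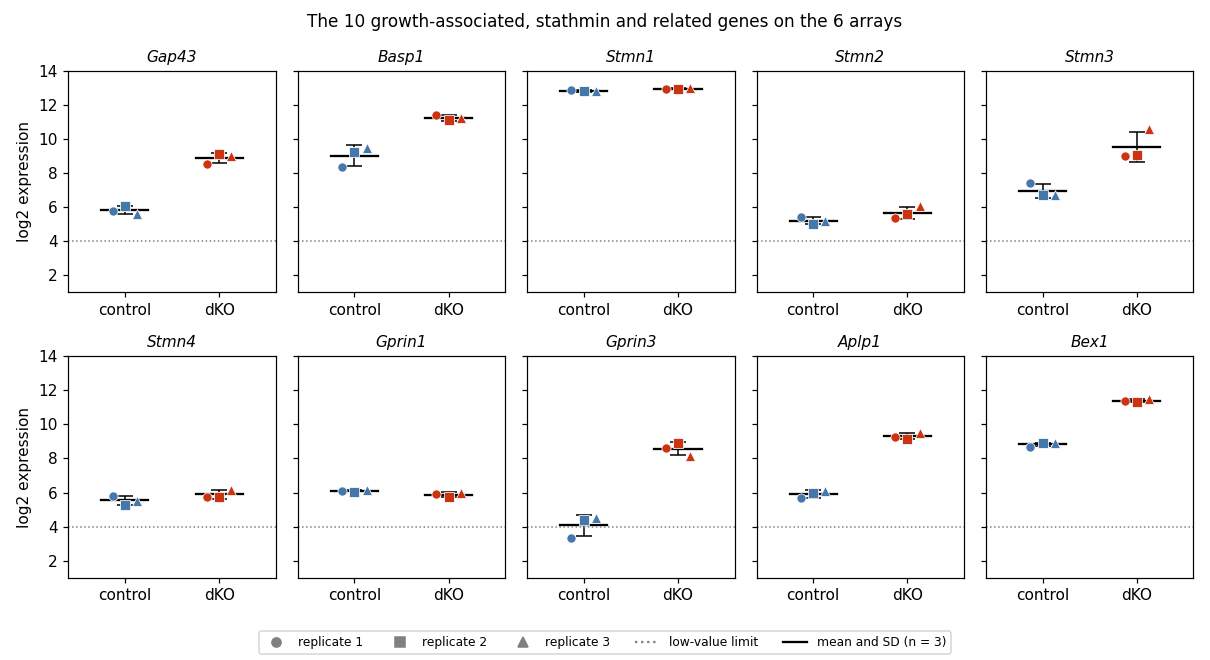
Log2 expression of the 10 genes on the 3 control (blue) and 3 dKO (red) arrays, 1 point per array with the mean and SD, and the low-value limit of 4 as a dotted line. Gap43, Basp1, Stmn3, Gprin3, Aplp1 and Bex1 have every dKO point above every control point by 1.59 or more, whereas Stmn1, Stmn2, Stmn4 and Gprin1 lie at nearly equal heights in both groups.

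Gap43, the growth-associated membrane protein gene, stood at 5.80, 6.07 and 5.59 on control arrays 1 to 3 and at 8.52, 9.09 and 9.01 on dKO arrays 1 to 3. The lowest dKO array was 2.45 above the highest control array. The change was 3.05 (SE 0.20), an 8.30-fold higher level in dKO nerves. Gap43 has 1 probe set on the array, so no other probe set bears on it.

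Basp1, whose product binds the inner membrane as the Gap43 protein does, was at 8.35, 9.25 and 9.47 in control and at 11.40, 11.10 and 11.20 in dKO nerves. The groups were 1.63 apart, and control 1 was the low array of its group. The change was 2.21 (SE 0.28), 4.64-fold, and 1.88 without control 1. Control 1 also had the lowest summed endothelial markers (805) and fibroblast markers (26100) of the 6 arrays. Its summed macrophage markers (1640) were the highest of the controls. The part of these sums in the Basp1 value was not tested.

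The 4 stathmins did not behave alike, and Stmn3 alone among them was past the threshold. Stmn3, a Golgi-associated stathmin of neurons, was at 7.39, 6.70 and 6.70 in control and at 8.99, 9.07 and 10.57 in dKO nerves. The change was 2.61 (SE 0.41), 6.10-fold. Its SD in dKO, 0.89, was the widest of the 10 genes, because dKO 3 lay 1.5 or more above dKO 1 and dKO 2. The other Stmn3 probe set showed the same order, with 6.38, 6.04 and 5.63 in control and 7.43, 7.71 and 8.95 in dKO nerves (change 2.01 with an SE of 0.38). Without dKO 3 the change of the first probe set was 2.10. The summed macrophage markers were also highest on dKO 3, at 3900 against 1900 and 1880 on dKO 1 and dKO 2. So was the median over all genes tested, at 7.64 on dKO 3 against 7.45 to 7.52 on the other arrays. The part of either in the Stmn3 value was not tested. The first probe set carries the suffix that Affymetrix gives to sets whose probes may match other transcripts. The brightest probe sets of Marcks, Marcksl1, Aplp2, Socs3 and Clca3a1, described below, carry it too.

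Stmn1, the ubiquitous stathmin of dividing and growing cells, lay near the top of the scale in every sample, at 12.86, 12.80 and 12.79 in control and 12.95, 12.91 and 12.97 in dKO nerves. The arrays did not overlap, but the gap was 0.05 and the change 0.13 (SE 0.13). Its other probe set gave 0.17 (SE 0.13), again with a gap of 0.05. The highest value of any probe set on the arrays was 14.94.

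Stmn2, a membrane-bound stathmin of growing neurites, was at 5.40, 5.01 and 5.21 in control and 5.35, 5.60 and 6.05 in dKO nerves, and the groups overlapped. Its change was 0.46 (SE 0.21), and 0.14 (SE 0.20) on the other probe set. Stmn4, another neuronal stathmin, was at 5.82, 5.28 and 5.51 in control and 5.75, 5.74 and 6.18 in dKO nerves, with a change of 0.36 (SE 0.19) and overlapping groups. For both genes dKO 3 was the highest of the 6 arrays, as for Stmn3.

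Gprin3 had the largest change of the 10. It was at 3.34, 4.39 and 4.48 in control nerves, at or near the low-value limit, and at 8.64, 8.90 and 8.16 in dKO nerves. The fitted change was 4.50 (SE 0.32). With the control 1 value set to the limit of 4, the level in dKO nerves was 19.4-fold higher. The second probe set behaved alike, with 3.48, 4.28 and 4.28 in control, 8.42, 8.72 and 8.20 in dKO nerves and a change of 4.43 (SE 0.25).

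Gprin1, the better known Go-binding family member of growth cones, had probe sets that disagreed. The brightest was at 6.12, 6.06 and 6.13 in control and 5.94, 5.74 and 5.98 in dKO nerves, a change of -0.21 (SE 0.13) with dKO below control by 0.08. A second gave -0.32 (SE 0.16). The third went the other way, from 4.34, 4.56 and 5.26 in control to 5.24, 5.62 and 6.14 in dKO nerves (change 0.95, SE 0.30), and its groups overlapped. None of the 3 was past the threshold, so no direction is given for Gprin1.

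Aplp1, a neuronal member of the amyloid precursor protein family, was at 5.68, 5.99 and 6.09 in control and 9.28, 9.16 and 9.49 in dKO nerves, a change of 3.39 (SE 0.17) or 10.5-fold, with 3.07 between the groups. The other probe set was at 5.24, 5.41 and 5.30 in control and 7.56, 7.72 and 7.71 in dKO nerves, a change of 2.35 (SE 0.14). Both probe sets put all dKO arrays above all control arrays, but their changes differed by more than their SEs. The brighter of them, like that of Stmn1, carries the Affymetrix suffix for probes shared by several transcripts, and their match was not checked.

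Bex1, a brain-expressed X-linked gene whose product binds the low-affinity neurotrophin receptor, was at 8.70, 8.89 and 8.88 in control and 11.38, 11.29 and 11.49 in dKO nerves. The change was 2.56 (SE 0.14), 5.91-fold, with SDs of 0.11 and 0.10. Xist, which coats and silences an X chromosome in female cells, was high on control 2, dKO 2 and dKO 3 (11.55, 11.67 and 11.24) and low on the other arrays (4.14 to 5.31). Within each group, Bex1 on Xist-high arrays lay within 0.19 of the Xist-low arrays. Xist-high arrays were not equally frequent in the groups, and the part of sex in the changes of Bex1 and its X-linked relatives was not tested.

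**Figure D2:**
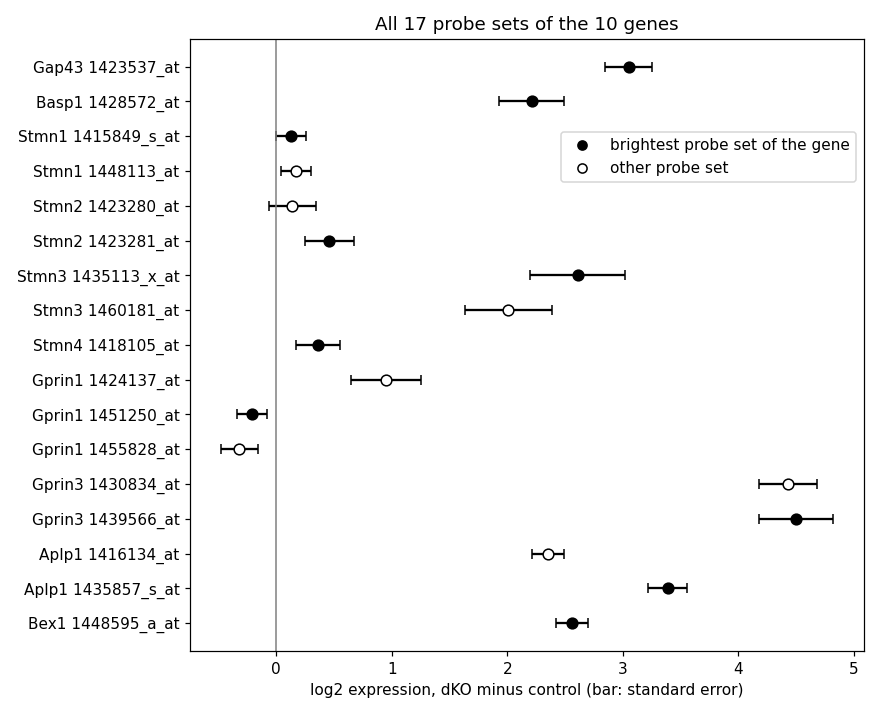
Change in log2 expression (dKO minus control, horizontal axis) with its SE for each of the 17 probe sets of the 10 genes, filled for the brightest probe set of a gene and open for the others. All 9 probe sets of the 6 higher genes lie at 2.01 or above, and the 3 Gprin1 probe sets fall on both sides of 0.

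Across arrays, the 6 higher genes together stood 2.94, 3.00 and 3.22 above their control mean on dKO 1, dKO 2 and dKO 3, while the single control arrays were at -0.22, 0.12 and 0.10. The dKO arrays therefore differed from each other by 0.29 at most on this mean. The genes with the closest pattern to Gap43 were sought among all tested genes outside the 10, by the root mean square difference over the 6 arrays, each array taken relative to the gene's control mean. The 5 nearest by brightest probe set were Akr1c13, Spock3, Dipk1a, Clca3a1 and Akr1cl, at 0.14 to 0.22 on the log2 scale. Akr1c13, an aldo-keto reductase gene, went from 6.46 ± 0.28 to 9.65 ± 0.27, and Spock3, a secreted proteoglycan gene, from 4.76 ± 0.26 to 7.66 ± 0.30. Dipk1a went from 6.62 ± 0.37 to 9.61 ± 0.21. Clca3a1 and Akr1cl were under the limit on all control arrays and were at least 7.12-fold and at least 4.08-fold higher in dKO nerves, with control values set to 4. Spock3 and Akr1cl each have another probe set under the limit on all arrays, and with probe sets averaged their changes were 1.45 and 1.49. These genes were picked for their pattern, and their values are a description.

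The relatives of the 10 genes were tested in the fit over all genes, in which 22.0% of genes were past the threshold (adjusted p under 0.05). This list and those that follow were chosen with earlier results of these data known, so nothing is read from their counts. Of 10 relatives, 9 were tested, 5 rose and 0 fell, with a median change of 0.62. Among these, Gprin2 passed the low-value filter only through its dKO arrays, so its call is a description. With no filter the counts were 5 and 0 of 10, with a median of 0.38. Bex2, Bex3, Bex4, Gprin2 and Marcksl1 rose, whereas App, Aplp2, Palm and Marcks did not pass the test.

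Bex4 and Bex2, close relatives of Bex1, rose by similar amounts. Bex4 was at 5.96, 6.42 and 6.67 in control and 9.03, 9.24 and 9.44 in dKO nerves (change 2.89, SE 0.21, adjusted p = 0.000154). Bex2 was at 6.37, 6.07 and 6.06 in control and 8.58, 9.14 and 8.99 in dKO nerves (change 2.74, SE 0.19, adjusted p = 0.000128). Bex3, whose product binds the same neurotrophin receptor, had a control level of 10.77 ± 0.08 and rose to 11.39 ± 0.09. Its change was 0.62 (SE 0.13, adjusted p = 0.0124), and the call was lost without control 2 (adjusted p = 0.05). Bex6 was under the limit on all arrays and was not tested. Whether the probes of one Bex gene also bind the transcripts of another was not tested.

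The 4 Bex genes lie in a cluster on the X chromosome, and their upstream sequences are shown because they fall into pairs with long identical stretches, which can be set against the expression changes. The sequences are the 250 bases before each gene's start in RefSeq, mouse build GRCm38.p6, read along the strand of the gene. Promoters were found for 6 of the 10 genes and for 4 relatives. Bex1 lies at chrX:136215514-136215763 on the minus strand and Bex4 at chrX:136138746-136138995 on the plus strand. Bex2 lies at chrX:136068237-136068486 on the minus strand and Bex3 at chrX:136270003-136270252 on the plus strand. Capitals mark the longest identical run, of 221 bases between Bex1 and Bex4 and of 145 bases between Bex2 and Bex3.
Bex1: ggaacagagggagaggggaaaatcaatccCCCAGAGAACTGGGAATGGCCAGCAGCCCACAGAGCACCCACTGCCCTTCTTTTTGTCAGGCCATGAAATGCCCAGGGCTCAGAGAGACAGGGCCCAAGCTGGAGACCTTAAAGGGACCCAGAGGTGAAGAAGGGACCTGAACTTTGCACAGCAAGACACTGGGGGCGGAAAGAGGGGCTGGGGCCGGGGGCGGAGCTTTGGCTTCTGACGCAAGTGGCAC
Bex4: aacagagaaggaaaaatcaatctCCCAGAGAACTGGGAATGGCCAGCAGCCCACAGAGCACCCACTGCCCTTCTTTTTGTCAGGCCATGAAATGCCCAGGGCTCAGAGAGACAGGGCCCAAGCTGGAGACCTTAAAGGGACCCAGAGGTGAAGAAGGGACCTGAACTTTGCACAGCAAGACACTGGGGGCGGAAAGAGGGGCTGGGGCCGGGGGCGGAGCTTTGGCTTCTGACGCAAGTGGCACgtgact
Bex2: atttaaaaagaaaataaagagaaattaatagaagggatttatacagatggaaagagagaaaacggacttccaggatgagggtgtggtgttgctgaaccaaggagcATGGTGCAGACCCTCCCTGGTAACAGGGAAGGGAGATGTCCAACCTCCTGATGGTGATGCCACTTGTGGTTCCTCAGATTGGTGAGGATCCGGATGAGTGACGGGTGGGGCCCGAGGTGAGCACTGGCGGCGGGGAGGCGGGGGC
Bex3: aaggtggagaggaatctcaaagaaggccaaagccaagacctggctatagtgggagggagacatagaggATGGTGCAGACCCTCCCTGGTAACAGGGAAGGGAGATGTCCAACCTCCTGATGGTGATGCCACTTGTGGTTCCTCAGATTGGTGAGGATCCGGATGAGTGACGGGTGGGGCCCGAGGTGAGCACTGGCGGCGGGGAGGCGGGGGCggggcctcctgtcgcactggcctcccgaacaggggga

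Between the pairs, no identical run was longer than 9 bases. Bex1 and Bex4, which share 221 bases, had changes of 2.56 and 2.89. Bex2 and Bex3, which share 145 bases, had changes of 2.74 and 0.62, from control means of 6.17 and 10.77. Bex1 and Bex2, whose longest identical run was 8 bases, had changes of 2.56 and 2.74. Whether shared upstream sequence goes with the size of the change was not tested. The shared Bex1 and Bex4 run ends 1 base before the start of Bex1 and 7 bases before that of Bex4.

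Gprin2, the remaining Gprin gene, was under the limit on all control arrays (2.90, 3.38 and 3.94) and at 5.95, 5.56 and 6.60 in dKO nerves. It was at least 4.10-fold higher with control values set to 4. Because it passed the low-value filter only through its dKO arrays, this is a description and no test is read from it. Thus Gprin2 and Gprin3 were low in control and well above the limit in dKO nerves, and Gprin1 was measured near 6 in both groups on its brightest probe set. The difference in change between these genes was not tested.

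In the amyloid precursor family, App was at 11.17 ± 0.06 in control and 11.30 ± 0.20 in dKO nerves (change 0.14, SE 0.15, adjusted p = 0.562). Aplp2 was at 11.32 ± 0.03 and 10.82 ± 0.52 (change -0.50, SE 0.24, adjusted p = 0.185), where dKO 3 stood apart at 10.22 and the other dKO arrays were at 11.06 and 11.17. Neither passed the test, beside the change of 3.39 for Aplp1. In the family of acylated membrane proteins, Marcks, a substrate of protein kinase C, was at 12.70 ± 0.01 and 12.83 ± 0.06 (adjusted p = 0.51). Palm, which encodes paralemmin, had a change of 0.04 (SE 0.14, adjusted p = 0.88). Marcksl1 rose by 0.67 (SE 0.19, adjusted p = 0.0407), which did not pass with control 1, control 3 or any one of the 3 dKO arrays left out (adjusted p up to 0.113) and with a replicate block (0.0732).

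**Figure D3:**
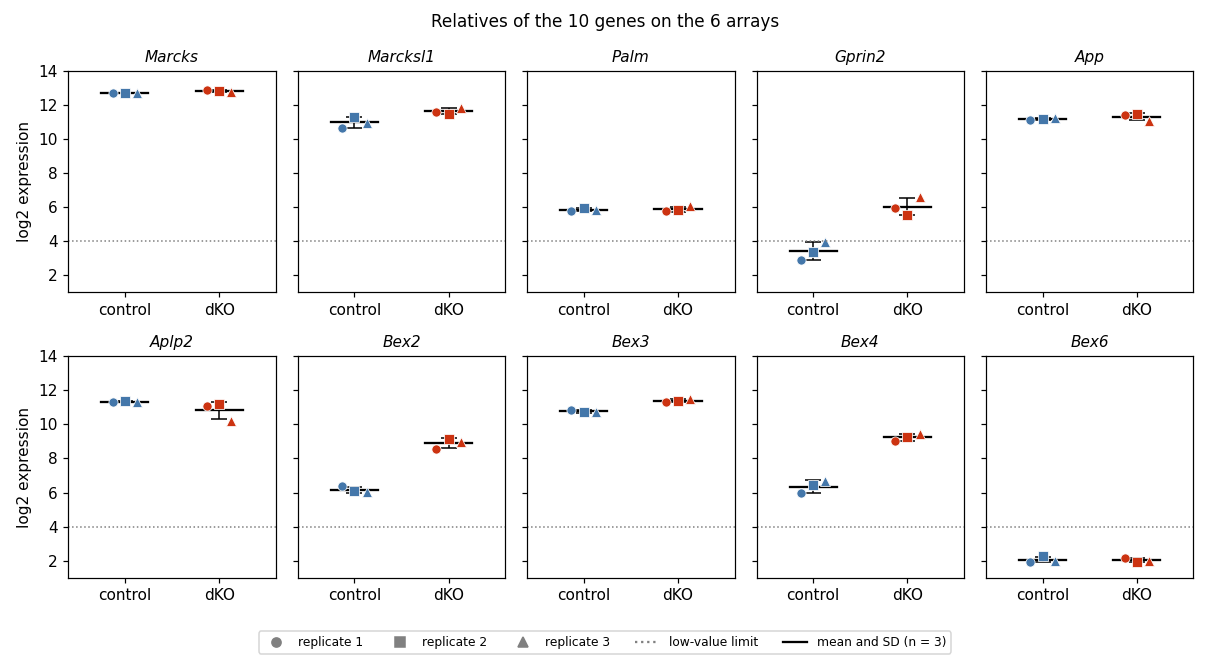
Log2 expression of the 10 relatives on the 3 control (blue) and 3 dKO (red) arrays, 1 point per array with the mean and SD, and the low-value limit of 4 as a dotted line. Bex2, Bex4 and Gprin2 are 1.62 or more higher on every dKO array than on any control array, and Bex6 lies under the limit on all arrays.

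Upstream sequences of the other members differed widely in base composition. The promoters of Gprin3 and Stmn3 are shown because both genes were higher in dKO nerves and their promoters lie far apart in CpG content. Capitals mark the GC box GGGCGG on either strand, the binding motif of Sp family factors. The Gprin3 window is at chr6:59426307-59426556 and that of Stmn3 at chr2:181314501-181314750, both on the minus strand.
Gprin3: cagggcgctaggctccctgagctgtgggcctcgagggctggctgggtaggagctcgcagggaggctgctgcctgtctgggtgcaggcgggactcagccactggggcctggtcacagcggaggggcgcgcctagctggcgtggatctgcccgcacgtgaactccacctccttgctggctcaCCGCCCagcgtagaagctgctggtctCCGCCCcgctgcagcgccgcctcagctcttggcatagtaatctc
Stmn3: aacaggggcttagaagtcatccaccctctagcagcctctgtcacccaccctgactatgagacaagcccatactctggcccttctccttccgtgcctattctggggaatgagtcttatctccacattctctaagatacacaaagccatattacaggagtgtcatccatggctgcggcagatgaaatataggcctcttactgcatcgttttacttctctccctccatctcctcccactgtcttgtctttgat

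The Gprin3 window has 16 CpG dinucleotides and 2 GC boxes, and the Stmn3 window has 3 and 0. A GC box was present in 5 of the 6 member promoters found, those of Gprin1, Gprin3, Aplp1, Basp1 and Bex1, and in 32.7% of all 32851 RefSeq promoter windows. Basp1 had 30 CpG dinucleotides and 4 GC boxes, and Gprin1, which has no settled direction here, had 21 and 3. The median over all windows was 6 CpG. An E-box, CANNTG on either strand, was present in 4 of the 6 and in 66.2% of all windows. These matches describe the letters in the window and not binding.

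Genes whose products bind, modify or signal with the members moved in both directions. Of 21 listed, 17 were tested, 4 rose and 4 fell, beside 12.6% and 9.38% of all genes tested. The median change was 0.03 and ran from -0.12 to 0.15 with an array left out, lowest without dKO 2 and highest without dKO 1. Prkcb, a protein kinase C isoform, showed the largest change of the list. It was at 5.37, 5.92 and 5.96 in control and 9.72, 9.61 and 10.18 in dKO nerves, a change of 4.08 (SE 0.22, adjusted p = 4.61e-05) or 16.9-fold, and another probe set rose by 2.55. The remaining Prkcb probe set was under the limit on all arrays, and with the 3 averaged the change was 2.22, or 4.66-fold (adjusted p = 5.09e-05). Prkca, another isoform, fell by 0.87 (SE 0.23, adjusted p = 0.0310), a call lost without any one control array or dKO 2 (adjusted p up to 0.0988). Prkce had a change of -0.45 (adjusted p = 0.121).

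Among G protein alpha subunits, Gnao1, the Go subunit bound by Gprin proteins and Gap43, rose from 5.70, 5.90 and 5.51 to 7.09, 7.05 and 7.82 (change 1.62, SE 0.23, adjusted p = 0.00188). A second Gnao1 probe set rose by 0.72, and the third had a change of 0.53 with overlapping groups. With the 3 averaged the Gnao1 change was 0.96 (adjusted p = 0.00712). Gnaz rose 2.01-fold, from 6.94 ± 0.25 to 7.94 ± 0.19 (adjusted p = 0.00528). Gnai1 fell from 12.18 ± 0.10 to 10.82 ± 0.26 (change -1.36, SE 0.17, adjusted p = 0.00104) on a list where Gnai2 and Gnai3 did not pass (adjusted p = 0.0796 and 0.162). Ngfr, the low-affinity neurotrophin receptor bound by Bex1, rose from 9.56 ± 0.13 to 10.56 ± 0.25 (2.01-fold, adjusted p = 0.00419), and its 2 other probe sets rose by 0.64 and 0.92. Mapk8ip1, a scaffold of Jun kinase signalling, fell by 1.06 (SE 0.13, adjusted p = 0.00104). Zdhhc17, a palmitoyl transferase, fell by 0.73 (adjusted p = 0.0239), a call lost without any one control array or dKO 2 (adjusted p up to 0.0751). Another Zdhhc17 probe set fell by 2.17 (adjusted p = 0.00379), and those with changes of -0.67 and -0.12 did not pass.

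Microtubule genes outside the stathmins also moved in both directions, with 9 of 31 tested higher and 4 lower. Over all genes tested, 12.6% were past the threshold as higher and 9.38% as lower. The median change of the list was 0.12. That median was 0.03 without dKO 3, 0.06 without dKO 1, 0.05 with arrays centred and 0.01 with probe sets averaged. Of the 10 tubulin genes tested, 1 rose, Tubb6 (change 0.67, adjusted p = 0.0168), and the other 9 did not pass. Tubb6 did not pass when control 2, control 3 or dKO 2 was left out (adjusted p = 0.0677, 0.0591 and 0.0588). The collapsin response mediators, which bind tubulin and act in growth cones, included the largest change of the list. Crmp1 was at 3.98, 4.16 and 4.56 in control and 7.31, 7.99 and 7.56 in dKO nerves (change 3.38, SE 0.22, adjusted p = 0.000105). With the control 1 value set to 4 it was 10.4-fold higher. Dpysl3 was at 7.81, 8.35 and 8.38 in control and 10.82, 10.86 and 10.57 in dKO nerves (change 2.57, SE 0.19, adjusted p = 0.000175), and its 3 probe sets rose by 2.19 to 2.57. Dpysl4 rose by 1.19 (adjusted p = 0.00148), or by 0.52 with probe sets averaged, and 2 of the 5 genes of this family did not pass.

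Map2, which stabilises microtubules in dendrites, rose from 8.22 ± 0.21 to 10.24 ± 0.25 (change 2.03, SE 0.18, adjusted p = 0.000295), as did all 4 of its probe sets. Tppp and Tppp3, tubulin polymerisation promoting proteins, rose by 1.56 and 1.23 (adjusted p = 0.000520 and 0.00647), with Tppp under the limit on 2 control arrays. Map6, which protects microtubules from cold, fell from 8.55 ± 0.11 to 6.40 ± 0.24 (change -2.16, SE 0.16, adjusted p = 0.000187). Mapre3, a binder of growing microtubule ends, fell by 1.56 (SE 0.16, adjusted p = 0.000560). Map1b and Map4 fell by 0.93 and 0.66 (adjusted p = 0.00459 and 0.0173), and the Map4 call was lost without control 2 (adjusted p = 0.0679). Tubb6 and Dpysl4 were named after their values were seen.

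Of 29 tested genes of growth cones and nerve regeneration, 7 rose and 2 fell, beside 12.6% and 9.38% of all genes tested. The median change of the list was 0.21, and 0.13 with arrays centred. The actin regulators of the Ena/VASP family had 3 genes on the list, of which Enah and Vasp kept their calls under every alternative run. Enah went from 8.47 ± 0.29 to 10.35 ± 0.10 (change 1.88, SE 0.18, adjusted p = 0.000346), with all 6 probe sets higher. Vasp rose by 0.85 and Evl by 0.75 (adjusted p = 0.0134 and 0.0352). Evl did not pass when control 1, control 3, dKO 1 or dKO 2 was left out (adjusted p from 0.0501 to 0.111), with arrays centred (0.0556), with its probe sets averaged (0.108) and with a replicate block (0.0677). Ncam1, a neural cell adhesion gene, rose by 0.81 (adjusted p = 0.0379), a call lost without any one control array, dKO 1 or dKO 2 (adjusted p up to 0.121) and with arrays centred (0.0717). Evl and Ncam1 were named after their values were seen. Sox11, a transcription factor of growing neurons, was at 7.68, 7.11 and 6.69 in control and 8.80, 8.89 and 9.07 in dKO nerves (change 1.76, SE 0.24, adjusted p = 0.00170).

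Chl1, a cell adhesion molecule, rose from 11.25 ± 0.05 to 12.25 ± 0.09 (adjusted p = 0.00135), and with its probe sets averaged the change was 0.38 (adjusted p = 0.331). Socs3, an inhibitor of cytokine signalling, rose by 1.12 (adjusted p = 0.0126). Another Socs3 probe set rose by 1.02, and the dimmest had a change of 0.18 with overlapping groups (adjusted p = 0.627). With its probe sets averaged the Socs3 change was 0.78 (adjusted p = 0.0288). Nrn1, which encodes the neurite growth protein neuritin, fell from 8.02 ± 0.40 to 5.75 ± 0.24 (change -2.27, SE 0.23, adjusted p = 0.000458). Cd24a, a surface glycoprotein gene, fell from 11.27 ± 0.04 to 9.04 ± 0.40 (change -2.23, SE 0.20, adjusted p = 0.000321), with all 3 probe sets lower. The injury-induced gene Atf3 did not pass, and Sprr1a, a regeneration-associated gene of neurons, did not reach the low-value filter.

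**Figure D4:**
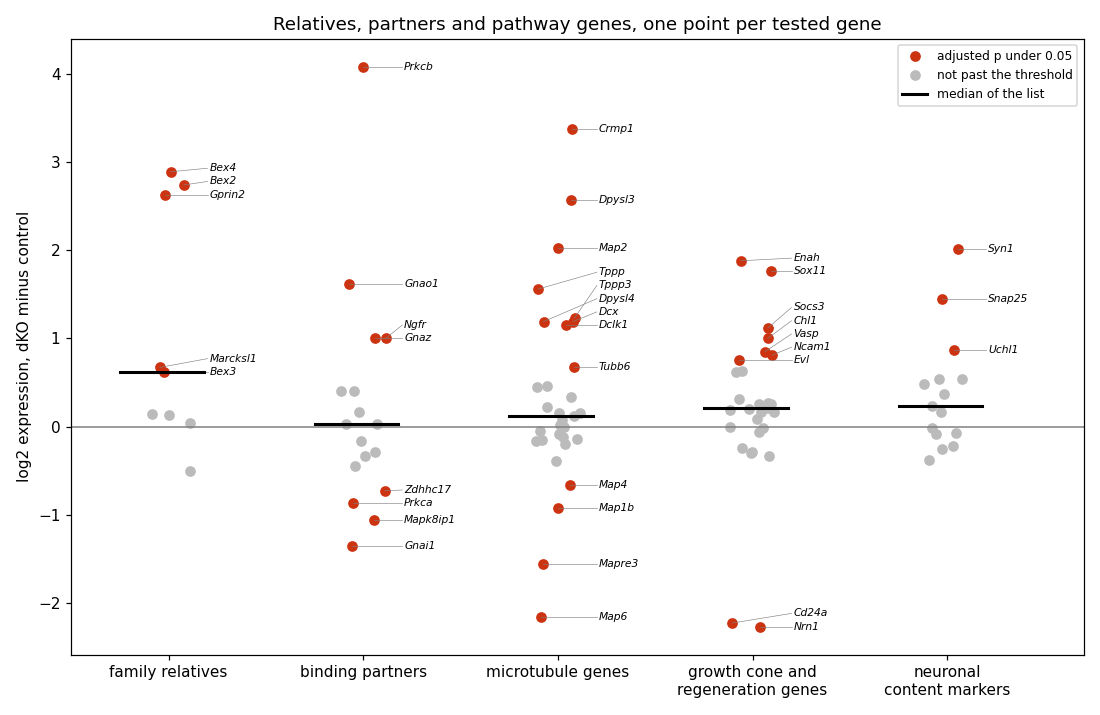
Change in log2 expression (dKO minus control, vertical axis) for each tested gene of the 5 lists of relatives, partners, microtubule genes, growth cone genes and neuronal markers. Red points passed an adjusted p of 0.05 and carry their symbol, grey points did not, and the black bar is the median of the list. Prkcb at 4.08 and Crmp1 at 3.38 are the highest points, and the medians lie between 0.03 and 0.62.

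The members are widely used as neuronal genes, so markers of neuronal content were set beside them. Of 20 listed, 15 were tested, 3 rose and 0 fell, and 4 were under the limit on all 6 arrays (Isl1, Scn10a, Chat and Slc18a3). Over all genes tested, 22.0% were past the threshold, 12.6% as higher and 9.38% as lower. Elavl4 passed the filter only through its dKO arrays. The median change was 0.23, and it was 0.14 with no filter, 0.54 under a limit of 6, 0.15 with arrays centred and 0.11 with probe sets averaged. Their summed linear level was 1600 to 2190 on control and 2460 to 3030 on dKO arrays. Most of this sum came from Nefl, the brightest gene of the list (10.17 ± 0.33 in control and 10.71 ± 0.27 in dKO nerves). Nefl did not pass and its groups overlapped, so the sum says little about the other markers. Snap25, a synaptic vesicle fusion gene, rose by 1.45 (SE 0.19, adjusted p = 0.00148). Uchl1, a ubiquitin hydrolase gene of neurons, rose by 0.87 (adjusted p = 0.0133). Syn1, a synapsin gene under the limit on 2 control arrays, rose by 2.01 (adjusted p = 0.000725). With those control values set to 4, Syn1 was 3.83-fold higher.

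The neurofilament genes, whose transcripts are abundant in the cell bodies of sensory and motor neurons, did not pass. Nefl was at 10.29, 10.42 and 9.80 in control and 10.81, 10.40 and 10.92 in dKO nerves (change 0.54, SE 0.21, adjusted p = 0.110), and Nefm and Nefh had changes of -0.02 and 0.17. The neuronal RNA-binding gene Rbfox3 had a change of -0.08 (adjusted p = 0.811). The part of neuronal RNA in the values of the 10 genes was not tested.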

How the data were processed

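The authors deposited log2 expression values per probe set for 6 Affymetrix Mouse Genome 430 2.0 arrays. The submitters' processing notes name GCOS 1.2 and GCRMA and give no settings. That the scale is log2 was inferred from the values, which ran from 1.66 to 14.94 with the same median, 5.77, on every array. Such equal distributions hide a change of all genes in 1 direction, and the GCRMA background step makes low values unreliable as levels.

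Of 45101 probe sets, 34958 had 1 gene symbol in the platform annotation, 932 had several, and 9211 stay unnamed here. Updated symbols came by gene ID with a RefSeq table (GRCm38.p6), which lacked the IDs of 204 named probe sets. A gene was its probe set with the highest mean over the 6 arrays. Genes at 4 or more on at least 3 arrays were tested (14550 of 18194) with limma 3.58.1 (lmFit, eBayes) in R 4.3.3, without covariates. P-values are two-sided and Benjamini-Hochberg adjusted over all genes tested (threshold 0.05), those of single probe sets over all probe sets. P-values measure only the spread between these samples, part of which may be technical. Xist differed within each group (5.31, 11.55 and 4.14 in control, 4.69, 11.67 and 11.24 in dKO nerves). The samples of a group were therefore not all repeats of the same material.

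The members and gene lists were chosen with earlier results of these data known. Text names all members and relatives, Hdac1 and Hdac2, up to 5 called genes per direction of each other list, and the 5 genes nearest to Gap43. Called cell type markers and Xist are named as well. Further genes are marked as named after their values were seen, except genes that did not pass, which serve as contrasts. The fit was tested on simulated data for this comparison, 14550 genes with 200 changed. It recovered 61% of changes of log2 size 1 and 92% of size 2, and 6.71% of its calls were unchanged genes. The direction of the call was checked for size 1 only. In the data 3198 genes were past the threshold, many more than were changed in the simulation, so these rates need not hold there. Same-numbered arrays did not deviate together (r = 0.04, -0.12 and -0.23), so the numbers were not taken as pairs. Other matchings of a control with a dKO array had r from -0.16 to 0.22. Pairing by litter was not tested, and the fit takes the arrays as unpaired. Alternatives were no filter, a limit of 6, averaged probe sets, an intensity trend, centred arrays, a replicate block and leaving out each array.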

Additional observations from a re-analysis of the deposited data

How the results depend on the processing

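The number of the 10 genes past the threshold was 6 higher and 0 lower under every alternative run, and with each array left out. Their median change ran from 2.16 to 2.47 with an array left out, and was 2.59 under a limit of 6, where Stmn2 and Stmn4 were not tested. Gprin1 reversed with its probe sets averaged (0.14) and on 1 other probe set alone (0.95). Palm, not past the threshold, reversed with probe sets averaged (-0.11), with arrays centred (-0.04) and without dKO 3 (-0.04), and ran from -0.04 to 0.10 with an array left out. Genes past the threshold as lower numbered 891 to 1331 with an array left out, the lowest without control 2, and as higher 1246 to 1585. Lower binding partners numbered 2 to 4, with 2 without any one control array or dKO 2. In these cases the cause was not tested beyond the fewer samples. Counts called in the other lists stayed within 1.5 times of their value, whereas their medians moved by more in places, from 0.38 to 0.66 for relatives and from 0.11 to 0.54 for neuronal markers. With the replicate block, 1501 genes were higher, and 2 of the called genes refitted by name outside the members, Marcksl1 and Evl, lost their call. Centring moved the share of higher calls to 49.4% from 57.3%.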
